A study of Homo sapiens with 6 samples.

Results

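The miR-34 family was described through 7 human (hsa) mature strands, hsa-miR-34a-5p, hsa-miR-34a-3p, hsa-miR-34b-5p, hsa-miR-34b-3p, hsa-miR-34c-5p, hsa-miR-34c-3p and hsa-miR-449a, which were taken by name from a table of 2588 miRNAs. Small RNA was sequenced from A549 cells, a lung adenocarcinoma line, in 3 libraries of parental cells (Ctrl) and 3 libraries of cells with a CRISPR/Cas9 deletion in the MIR21 locus (MIR21-KO). Both groups received no further treatment and were harvested 48 h after seeding. Knockouts were obtained by sorting single cells transfected with a pair of sgRNA plasmids and a Cas9 plasmid, whereas Ctrl cells were not cloned, so that the deletion and the cloning cannot be told apart. The labels do not say whether the libraries of a group came from separate cultures, and the p-values below therefore measure only the spread between these libraries.

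The miR-34 family is known as a group of tumor-suppressive miRNAs, which repress cell cycle and survival genes such as CDK4, CDK6, CCND1, MET and BCL2. MIR34A is transcribed on its own, MIR34B and MIR34C come from one shared transcript, and the related miR-449 genes lie in the cell division cycle gene CDC20B. In the airway, miR-34b/c and miR-449 are best known from multiciliated cells, where they act in ciliogenesis.

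The mature sequences show which strands can address the same targets, since base pairing of the seed (bases 2 to 8, in capitals, 5′ to 3′) is the main determinant of target choice. They were taken from RefSeq (GRCh38.p14), in which 6 of the 7 members, all but miR-34c-5p, were matched by name, and miR-449c-5p and miR-2682-5p are shown because they carry the seed of miR-34b-5p.
miR-34a-5p: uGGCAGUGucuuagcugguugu
miR-449a: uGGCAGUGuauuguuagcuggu
miR-34b-5p: uAGGCAGUgucauuagcugauug
miR-449c-5p: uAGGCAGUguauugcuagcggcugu
miR-2682-5p: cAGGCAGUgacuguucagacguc
miR-34a-3p: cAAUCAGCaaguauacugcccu
miR-34b-3p: cAAUCACUaacuccacugccau
miR-34c-3p: aAUCACUAaccacacggccagg

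The seed of miR-34c-5p was not compared here. Among the matched strands the seed GGCAGUG was shared by miR-34a-5p, miR-449a and miR-449b-5p. These were 3 of the 2370 mature miRNAs compared (0.127%), a set that did not hold miR-34c-5p. In miR-34b-5p the same letters lie one base further from the 5′ end, which makes its seed AGGCAGU, again found in 3 miRNAs. The seeds of miR-34a-3p, miR-34b-3p and miR-34c-3p each occurred in 1 miRNA. Aligned over their whole length, miR-34a-5p (22 bases) and miR-34b-5p (23 bases) had 20 identical bases, and miR-34a-5p and miR-449a had 17.

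In GRCh38 the MIR34A hairpin lies at chr1:9151668-9151777 on the minus strand, in an exon of the long noncoding RNA gene MIR34AHG, with miR-34a-5p at chr1:9151735-9151756 and miR-34a-3p at chr1:9151693-9151714. The MIR34B hairpin lies at chr11:111512938-111513021 on the plus strand and the MIR34C hairpin at chr11:111513439-111513515, 417 bases further on. Both fall inside the RefSeq host gene MIR34BHG (chr11:111510602-111513888), and no gene of GENCODE 29 other than the miRNAs overlaps them. The MIR449A hairpin lies at chr5:55170532-55170622 on the minus strand, in an intron of CDC20B.

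The libraries held 5577287 to 9768152 miRNA reads. The deletion was visible in each library, as miR-21-5p made up 65.5% to 69.4% of the miRNA reads in Ctrl and 0.0156% to 0.0254% in MIR21-KO. Libraries of one group did not all resemble each other. The first principal component of the miRNAs outside the family held 63.8% of the variance and put Ctrl 1, Ctrl 2 and MIR21-KO 3 (set A) on one side and Ctrl 3, MIR21-KO 1 and MIR21-KO 2 (set B) on the other. The labels name no batch that matches these sets. The paper states that small RNA libraries were made with a NEXTflex kit or by Novogene, and sequenced at TU Dresden or Novogene. It does not say which library was made where, so a link to the sets was not tested. Because the split came out of the tested data themselves, p-values of models with a set term are not independent of it.

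Levels are given as deposited, as reads per 1000000 scaled by the authors with trimmed mean of M-values (TMM) factors. A value of 1 corresponded to between 3 and 4 reads in Ctrl 1 and Ctrl 2 and to more reads in the other libraries, since 1 read was worth 0.141 to 0.270 in Ctrl and 0.0720 to 0.130 in MIR21-KO. Of the 7 members, 6 passed the filter for testing (3 or more libraries with a value of 1 or above), as did 607 of the 2588 miRNAs. miR-34b-5p passed through the 3 libraries of set B alone and miR-34a-3p through these and Ctrl 2. In bulk RNA, fewer cells expressing a miRNA and less of it per cell cannot be told apart.

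miR-34c-5p was the most abundant member. Its level was 720, 814 and 1699 in Ctrl 1 to 3 and 2849, 2458 and 1148 in MIR21-KO 1 to 3, with means of 1078 ± 540 and 2152 ± 891 (SD, n = 3). The groups overlapped because Ctrl 3 lay above MIR21-KO 3. By mean level it ranked 60 in Ctrl and 44 in MIR21-KO among the detected miRNAs. On the log2(value + 1) scale, used for all differences below, MIR21-KO exceeded Ctrl by 1.004 ± 0.54 (SE), with a 95% interval from -0.25 to 2.26 (limma, adjusted p = 0.565).

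miR-34a-5p, the most studied strand of the family, followed at lower levels. It was 125, 188 and 954 in Ctrl 1 to 3 and 867, 696 and 156 in MIR21-KO 1 to 3, with means of 422 ± 462 and 573 ± 371 (SD, n = 3). The highest and the lowest library were both Ctrl libraries, and MIR21-KO lay between them. The difference of 0.69 ± 0.94 had an interval from -1.50 to 2.88 (limma, adjusted p = 0.789), so neither a fall nor a rise of severalfold was outside what these libraries allow.

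miR-34b-3p, the abundant strand of its hairpin, was 9.08, 16.8 and 12.0 in Ctrl 1 to 3 and 21.8, 23.0 and 17.9 in MIR21-KO 1 to 3. It was the only member whose MIR21-KO libraries all lay above the Ctrl libraries, an order held by 9.56% of all miRNAs tested, and 0 members had the reverse order, held by 6.59%. The closest libraries were Ctrl 2 (16.8, from 62 reads) and MIR21-KO 3 (17.9, from 138 reads). The gap between these scaled values was smaller than the counting error of 62 reads, so the order of miR-34b-3p in this pair lies within counting error. Its means were 12.6 ± 3.88 and 20.9 ± 2.64 (SD, n = 3), and the difference of 0.72 ± 0.42 did not pass the test (limma, adjusted p = 0.592).

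Of the other tested strands, miR-34b-5p and miR-34a-3p were near the limit of detection in some libraries, and miR-34c-3p was above it in each. miR-34c-3p had levels of 5.07, 8.65 and 9.45 (19, 32 and 67 reads) in Ctrl 1 to 3. In MIR21-KO 1 to 3 its levels were 18.4, 17.1 and 5.20 (255, 237 and 40 reads). miR-34b-5p was counted in 1, 0 and 31 reads in Ctrl and 70, 63 and 7 reads in MIR21-KO, and miR-34a-3p in 2, 5 and 25 reads and 28, 32 and 3 reads. In each of these strands MIR21-KO 3 lay far below MIR21-KO 1 and 2, and the groups overlapped. Their differences were 0.61 ± 0.56, 1.08 ± 0.73 and -0.08 ± 0.52 (SE), with adjusted p-values in limma of 0.719, 0.654 and 0.949. Leaving out 1 library moved them between 0.32 and 1.14, 0.62 and 1.83, and -0.44 and 0.34, and pseudocounts of 10 and 0.1 gave 0.23 and 2.40 for miR-34b-5p.

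miR-449a was barely detected, with 1, 0 and 1 reads in Ctrl and 9, 5 and 1 reads in MIR21-KO, and was not tested. The other miR-449 strands were as scarce, apart from miR-449c-5p. That strand, with the seed of miR-34b-5p, had 7, 3 and 65 reads in Ctrl and 59, 50 and 6 reads in MIR21-KO, high in the same libraries as miR-34a-5p. miR-449b-5p had at most 2 reads in a library, and miR-449b-3p and miR-449c-3p had 0 reads in every library. A count of 0 allows up to 0.307 to 0.538 reads per 1000000 in these libraries, for counting error only.

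**Figure D1:**
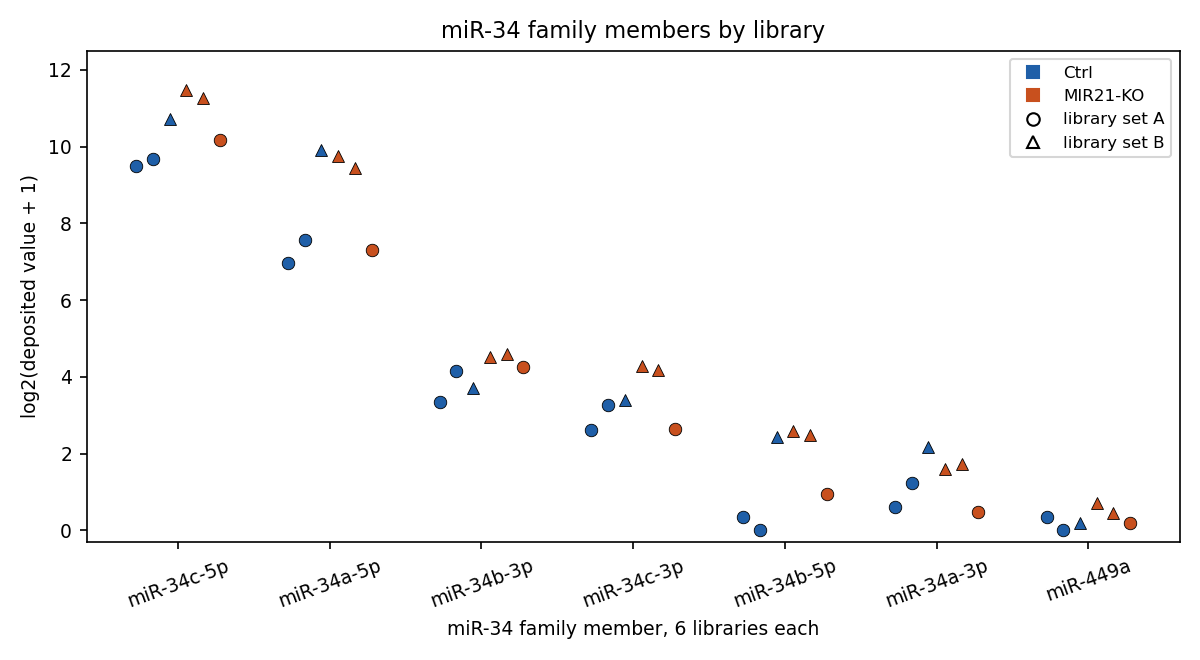
Level of each member as log2(deposited value + 1), with 1 point per library, Ctrl in blue and MIR21-KO in orange, circles for library set A and triangles for set B. Levels fall from miR-34c-5p (720 to 2849 before the log) to miR-449a (at most 0.648), and triangles lie above circles in each member but miR-34b-3p, and in miR-449a only in part.

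In the comparison of MIR21-KO with Ctrl, 0 of the 6 tested members passed an adjusted p of 0.05 in limma, against 0.824% of all miRNAs tested. With no adjustment, 0 of the 6 members had a limma p below 0.05, against 68 of all 607 miRNAs tested. At an adjusted p of 0.05, edgeR (0.824% of all) and DESeq2 (3.83% of all) also called 0 members. The median difference of the members was 0.70 and that of all tested miRNAs 0.24, and 5 of 6 members had a positive value, as did 61.8% of all. Scaling to total reads in place of TMM raised the median of all miRNAs to 1.34. Under that scaling miR-34b-3p (2.01, adjusted p = 0.0284) and miR-34c-5p (2.39, adjusted p = 0.0312) passed in limma, 2 of 6 members beside 33.4% of all miRNAs tested (32.3% higher in MIR21-KO), and miR-34a-3p turned positive. With miR-21 left out of the total, the median of all miRNAs was 0.03. miR-34b-3p was then 0.49 and miR-34c-5p 0.75, and 0 members passed.

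Of the 6 tested members, 5 differed more between the library sets than between Ctrl and MIR21-KO, as did 71.2% of all miRNAs tested. Among these 5, miR-34b-5p and miR-34a-3p passed the filter mainly through set B, which favoured a larger set difference. miR-34a-5p had values from 125 to 188 in set A and from 696 to 954 in set B, which put its mean 5.37-fold higher in set B, and miR-34c-5p ranged from 720 to 1148 and from 1699 to 2849. Every set B library lay above every set A library in miR-34a-5p, miR-34c-5p and miR-34c-3p, an order found in 35.1% of all miRNAs tested, whereas the sets overlapped in miR-34b-3p. The same order in miR-34b-5p was fixed by the filter, which it passed in set B alone, and in miR-34a-3p it was favoured by the filter. The set difference of miR-34a-5p, 2.47 on the log2 scale, was larger than that of 96.5% of tested miRNAs, followed by 1.93 for miR-34b-5p (a value tied to the filter), 1.22 for miR-34a-3p, 1.18 for miR-34c-5p and 1.02 for miR-34c-3p, while miR-34b-3p (0.13) lay below the median of all miRNAs (0.20). These are descriptions, as the sets were drawn from the data.

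Single markers of endothelium, liver and blood were lower in every set B library than in every set A library. This order was held by 22.1% of all miRNAs tested. The endothelial miR-126-3p was 2442 to 3648 in set A and 664 to 964 in set B, and the liver miR-122-5p 51.9 to 141 and 7.90 to 16.2. The sum of 4 blood cell markers was 9.23 to 42.4 in set A and 2.26 to 4.75 in set B, with miR-451a as the single blood marker that did not overlap. Muscle markers summed to 11.8 to 71.1 and 5.79 to 22.9, the neuronal miR-124-3p was at most 0.811, and the 5 epithelial miR-200 family markers summed to 1269 to 2171 and 879 to 2070. Among the epithelial markers, miR-200a-3p was higher in set B (226 to 537) than in set A (60.6 to 108), an order held by 35.1% of all miRNAs tested. The other epithelial markers overlapped between the sets. Of the 5 multiciliated markers, miR-449a and miR-449b-5p were near 0, and the list's sum, 722 to 1150 in set A and 1713 to 2859 in set B, was mostly miR-34c-5p itself. The part of these markers in the results was not tested.

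With the set as a term in the model, the spread left to each member became smaller. The difference between MIR21-KO and Ctrl was then -0.13 ± 0.26 for miR-34a-5p, with an interval from -0.69 to 0.42 (limma, adjusted p = 0.777), where its standard error had been 3.60 times as large without the term. It was 0.61 ± 0.22 for miR-34c-5p, with an interval from 0.14 to 1.08 (unadjusted p = 0.0140 and adjusted p = 0.0656 in limma). For miR-34b-3p it was 0.67 ± 0.32 (unadjusted p = 0.0499 and adjusted p = 0.159 in limma). With no adjustment, 2 of the 6 members had a p below 0.05 in this limma model, against 190 of all 607 miRNAs tested. At an adjusted p of 0.05 the term called 0 of 6 members, against 18.1% of all miRNAs tested in either direction (11.7% higher in MIR21-KO). In edgeR the same term also called 0 (13.8% and 8.4% of all). Without Ctrl 2 the same model called miR-34c-5p (0.65, adjusted p = 0.0179) and miR-34b-3p (0.87, adjusted p = 0.0133), an alternative added after the data were seen, which called 31.8% of all miRNAs tested (20.1% higher in MIR21-KO).

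Inside each set, MIR21-KO and Ctrl can be set side by side by their mean log2 levels, without a test. A single library stands for MIR21-KO in set A (MIR21-KO 3) and for Ctrl in set B (Ctrl 3). Over all miRNAs tested the median difference was 0.129 in set A and 0.127 in set B. miR-34c-5p was higher in MIR21-KO by 0.58 in set A and 0.64 in set B, and miR-34b-3p by 0.50 and 0.85. miR-34a-5p differed by 0.03 and -0.30. A higher level in MIR21-KO in both sets was seen in miR-34c-5p, miR-34b-3p and miR-34b-5p, an order held by 30% of all miRNAs tested, and a lower level in both in miR-34a-3p, held by 17.6%. In set A, miR-34b-5p rested on 1 and 0 reads in Ctrl 1 and Ctrl 2 and 7 reads in MIR21-KO 3. miR-34a-3p rested there on 2, 5 and 3 reads in the same libraries, too few to fix a direction. Scaled to total reads in place of TMM, miR-34a-3p in MIR21-KO 3 lay above Ctrl 1 and below Ctrl 2. miR-34c-3p changed sign between the sets, from -0.30 to 0.84.

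**Figure D2:**
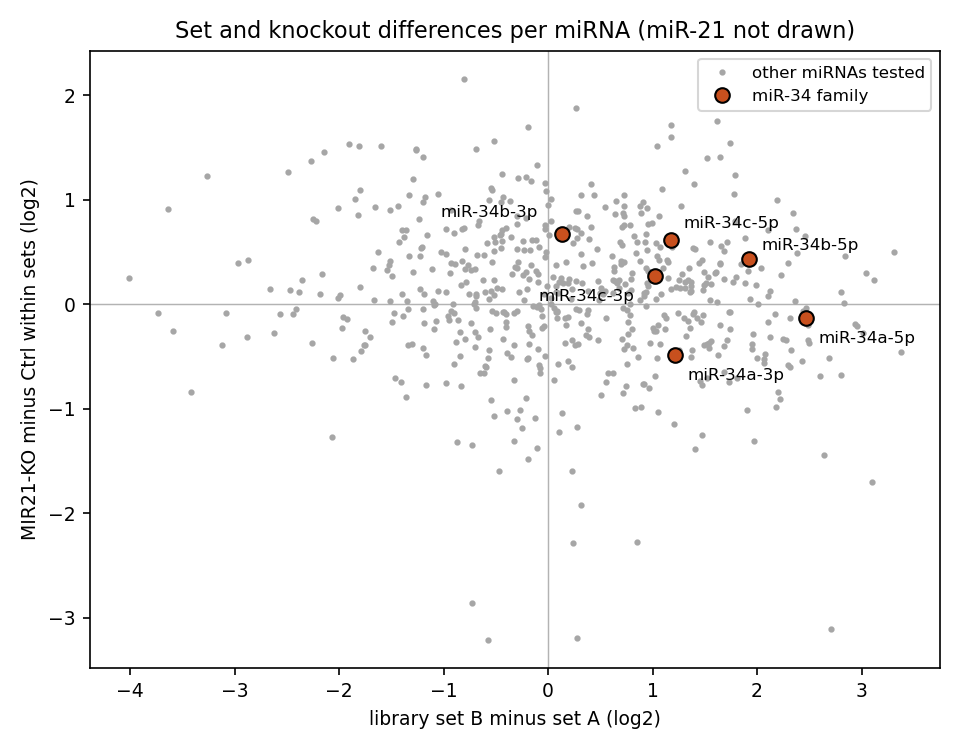
Each point is a miRNA tested, by its log2 difference between library set B and set A (horizontal) and between MIR21-KO and Ctrl with the set term (vertical), with the family in orange. miR-34a-5p lies far to the right (2.47) near 0 on the vertical axis (-0.13), and miR-34b-3p lies near 0 on the horizontal axis (0.13) and at 0.67 on the vertical axis.

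**Figure D3:**
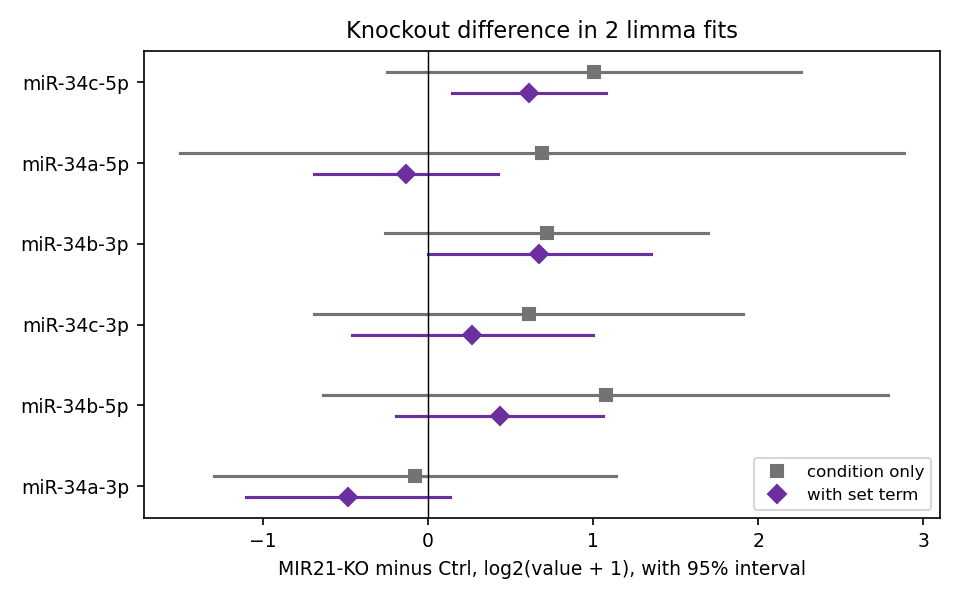
Difference between MIR21-KO and Ctrl in log2(value + 1) for the 6 tested members, with 95% intervals, from the limma model with condition alone (squares) and with the set term (diamonds). Adding the set term moves miR-34a-5p from 0.69 to -0.13 and narrows each interval, and the interval of miR-34c-5p then runs from 0.14 to 1.08.

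The balance within the family also followed the libraries. Together the 7 members took 0.136%, 0.196% and 0.641% of the miRNA reads other than miR-21 in Ctrl 1 to 3 and 0.603%, 0.613% and 0.183% in MIR21-KO 1 to 3. miR-34c-5p exceeded miR-34a-5p in 6 of 6 libraries, with ratios of 5.77, 4.33 and 1.78 for Ctrl 1 to 3 and of 3.29, 3.53 and 7.35 for MIR21-KO 1 to 3. The ratio was lowest in the 3 set B libraries and, inside each set, higher in MIR21-KO than in Ctrl. miR-34b-3p, the abundant strand of its hairpin, exceeded miR-34c-3p, the scarce strand of its own, in 6 of 6 libraries. Both hairpins share a transcript, and miR-34c-5p had at least 48.6 times the reads of miR-34b-3p. Levels of different miRNAs also depend on how well each is captured in a library.

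Each hairpin gives a 5p and a 3p strand, of which one is usually retained. The 3p strand made up 0.426%, 0.713% and 0.368% of miR-34a reads in Ctrl 1 to 3 and 0.232%, 0.330% and 0.249% in MIR21-KO 1 to 3. Every MIR21-KO value was below every Ctrl value, as in 5.91% of 186 hairpins whose share did not overlap between the groups in either direction. The means were 0.503% ± 0.185 and 0.271% ± 0.0525 (SD, n = 3; two-sided exact permutation p = 0.1, the smallest this design allows), and the 95% Wilson intervals of single libraries overlapped, as the 3p strand rested on 2 to 32 reads. For miR-34c the 3p share was between 0.451% and 1.05%, with overlapping groups.

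The miR-34b hairpin had the opposite preference. Its 3p strand made up 97.1%, 100% and 73.3% of reads in Ctrl 1 to 3 and 81.2%, 83.5% and 95.2% in MIR21-KO 1 to 3. The share was 95.2% to 100% in set A and 73.3% to 83.5% in set B, while Ctrl and MIR21-KO overlapped (two-sided exact permutation p = 0.8). Shares that did not overlap between the sets were found in 54.3% of the 186 hairpins. The miR-34b shares rest on 35 to 382 reads a library.

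Over the 6 libraries the miRNAs most like miR-34a-5p on the log2 scale were miR-29a-3p (Pearson r = 0.998), miR-30a-5p (0.996), miR-582-5p (0.995), miR-769-3p (0.992) and miR-130a-3p (0.988). They were the top 5 of 328 miRNAs with a mean level of at least 10. Such likeness was common, as 74 of the 328 (22.6%) had r above 0.9, and all of these points share the set split. miR-34c-5p had r = 0.898 with miR-34a-5p, miR-34b-5p had r = 0.953 with miR-34c-5p, and miR-34b-3p had r = 0.417 with miR-34a-5p and 0.680 with miR-34c-5p.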

How the data were processed

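Small RNA libraries of A549 Ctrl (n = 3) and MIR21-KO (n = 3) cells were analysed. The authors deposited 1 table of 2813 rows with a signal per miRNA and library, which are read counts per 1000000 scaled by TMM. Per the labels the build was hg38, and the submitters' processing notes name cutadapt 1.14, Bowtie2 2.3.2, SAMtools 1.5, featureCounts 1.5.3 and edgeR 3.18.1. How reads fitting several miRNAs were counted is not given in the sources used here. The authors' own comparison, deposited with a log2 change and a p-value for each row, was not used.

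Whole reads were recovered from the steps of the values (100% whole within 1e-06 of a read), rows of one name were summed, and each member had 1 row. The test was limma 3.58.1 (trend, two-sided) on log2(value + 1), with Benjamini-Hochberg adjustment over 607 miRNAs (3 or more libraries at a value of 1 or above). Fold changes on this scale understate changes of scarce miRNAs. The design fixed limma for the deposited values, and edgeR 4.0.16 and DESeq2 1.42.0 were run on the recovered counts as alternatives (R 4.3.3). Both call 0 members, and over all miRNAs edgeR calls 5. The script was tested on simulated data. Alternatives were the pseudocount, filter, scaling, set term, replicate block and each library left out.

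The members and lists were chosen with earlier results of these data known. Named were the members, the other miR-449 strands, the cell type markers, the 5 miRNAs most correlated with miR-34a-5p, and miR-21. miR-2682-5p was added for its seed after its values were seen. Lists of further miRNAs that were fixed with the design, and their results, are not reported here.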

Additional observations from a re-analysis of the deposited data

How the results depend on the processing

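Leaving out 1 library moved miR-34a-5p between 0.10 and 1.57, miR-34c-5p between 0.75 and 1.40, miR-34b-3p between 0.52 and 0.93, and the 3p share of miR-34a between -0.299 and -0.127 percentage points, with 0 members called throughout. The set term turned miR-34a-5p to -0.13 (edgeR with the set term -0.15), and, when a library was also left out, to -0.28 without Ctrl 1, -0.031 without Ctrl 2, 0.03 without Ctrl 3, and -0.18, -0.044 and -0.30 without MIR21-KO 1, 2 and 3. miR-34a-3p turned positive when scaled to total reads (0.69), without Ctrl 3 (0.34, the highest of -0.44 to 0.34) and without MIR21-KO 3 (0.32), and miR-34c-3p turned to -0.30 with the set term without Ctrl 3. Members called were 2 when scaled to total reads and 0 when scaled to total reads without miR-21. With the set term they were 2 without Ctrl 2 (0 to 2 over the libraries left out, added after seeing the data). Over all miRNAs 5 were called, 3 with a pseudocount of 10, 203 scaled to total reads, 9 with median centring, 23 in DESeq2, 110 with the set term, 84 in edgeR with the set term, and 2 to 5 without 1 library. The median of all miRNAs was 0.24, 1.34 for total reads, 0.03 for total reads without miR-21, 0.10 for median-of-ratios scaling and -0.06 for median centring. The causes were not tested. Counts below about 10 reads limit miR-449a, miR-34b-5p and miR-34a-3p.

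Same-numbered libraries deviated from their group means with correlations of -0.79, -0.60 and -0.88. Each of these pairs crossed the library sets, and every pair that did so had a negative correlation. These values therefore cannot decide whether replicate numbers pair the libraries. With the replicate block 2 miRNAs and 0 members were called.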

Other observations

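miR-2682-5p, which has the seed of miR-34b-5p on a different hairpin, was high in the libraries where miR-34a-5p and miR-34c-5p were low. Its level was 731, 689 and 82.3 in Ctrl 1 to 3 and 86.9, 70.0 and 666 in MIR21-KO 1 to 3. Set B lay below set A by -3.09 on the log2 scale, with no overlap, as in 22.1% of all miRNAs tested, whereas the difference between MIR21-KO and Ctrl was -1.11 ± 1.13 (SE; limma, adjusted p = 0.719) and -0.08 with the set term. It was named after its values were seen.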
